A study of Mus musculus with 40 samples.

Results

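Mast cell RNA was followed with 9 genes of the 54307 in the deposited table: the receptor Kit, the granule proteases Cpa3, Cma1, Mcpt4, Tpsb2 and Tpsab1, the IgE receptor chains Fcer1a and Ms4a2, and Hdc, the enzyme that makes histamine. The members were chosen by gene symbol, with the Ensembl identifiers matched to GENCODE on the mouse genome GRCm39, and all 9 were found. The question was whether RNA of mast cells in the choroid differed with PLX5622 (PLX), a small kinase inhibitor that blocks the CSF1 receptor and was fed to the mice to deplete mononuclear phagocytes (MP), and whether it differed between choroid and retina or between genotypes.

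The 40 libraries came from choroid and retina of 20 mice on a C57BL/6J background, both sexes included, with 5 mice in each of 4 groups: control – PLX (mice 1 to 5), Tgfbr2ΔEC – PLX (mice 6 to 10), control + PLX (mice 11 to 15) and Tgfbr2ΔEC + PLX (mice 16 to 20). All mice carried floxed Tgfbr2 alleles (Tgfbr2 fl/fl); Tgfbr2ΔEC mice also carried Cdh5-CreERT2, a tamoxifen-inducible recombinase under an endothelial promoter, and controls were littermates without it. Both genotypes received tamoxifen eye drops for 5 days from an age of 6 to 7 weeks, and PLX or control food was fed from the first drop to the end. Every eye received 6 laser burns, which break the membrane under the retina and start choroidal neovascularization, so that no group was without laser, and tissue was taken 3 days later, with only the central, lesioned choroid used. The deposited values are DESeq2-normalized counts, that is estimated reads per gene divided by scaling factors. If 1 factor per library is taken to hold for every gene, a single read (1 read) corresponded to a value of 0.905 to 1.19 in the choroids and of 0.745 to 1.13 in the retinas. Read numbers given here rest on that assumption. By that measure a choroid library held between about 21538000 and 28174800 reads, and a retina library between about 20940400 and 30421600. Tgfbr2 RNA of whole choroid had a mean of 10503 ± 425 normalized counts (SD, n = 5) in control – PLX and 10176 ± 1077 in Tgfbr2ΔEC – PLX mice, with overlapping values. The recombinase acts in endothelium alone, so whole tissue is a weak check of that label. The labels do not give the sex of a mouse. The mean log2(normalized count + 1) of Xist and 4 Y chromosome genes was 6.46 in control – PLX, 6.71 in control + PLX, 5.91 in Tgfbr2ΔEC – PLX and 4.44 in Tgfbr2ΔEC + PLX choroids. Lower values go with fewer males, so the sexes may be unevenly spread over the groups.

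Mast cells are long-lived immune cells of connective tissue that lie along vessels, the choroid included. Stem cell factor, encoded by Kitl, binds KIT on their surface and keeps them alive, and antigen bound to IgE on the FcεRI receptor makes them release granules. Those of connective tissue type store histamine, chymases, tryptases and carboxypeptidase A3. KIT, CSF1R and FLT3 are class III receptor tyrosine kinases, and PLX5622 was designed to be selective for CSF1R. Kit is also expressed by other cells, melanocytes among them, and the choroid is rich in melanocytes, so that Kit RNA alone does not mark mast cells.

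The proteases were present in choroid and absent or nearly absent in retina. Cpa3 is carboxypeptidase A3, a granule enzyme found nearly only in mast cells (chr3:20269774-20296362, minus strand), Cma1 and Mcpt4 are chymases that lie in a protease cluster on chromosome 14 (chr14:56178908-56182132 and chr14:56297086-56299770, both minus strand), and Tpsb2 and Tpsab1 are tryptases that neighbour each other on chromosome 17 (chr17:25585170-25588079, plus strand, and chr17:25562212-25564541, minus strand). Over the 20 choroids Cpa3 had a mean of 69.2 ± 53.1 normalized counts (SD), Cma1 89.1 ± 59.5, Mcpt4 102 ± 70.6, Tpsb2 118 ± 75.6 and Tpsab1 47.4 ± 74.2. Cpa3, Cma1 and Tpsab1 were at 0 in all 20 retinas, where 3 reads correspond to a mean of 2.91 normalized counts, so that their choroid means were at least 23.8-fold, 30.6-fold and 16.3-fold higher. Mcpt4 had about 3 reads over 20 retinas against about 1963 over 20 choroids, a ratio of 654 (95% exact interval 224 to 3176), and Tpsb2 about 1 read against 2263 (ratio 2263, interval 406 to 89423). These intervals and floors cover counting error only, since the reads carry no molecular identifiers.

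The receptor and enzyme members were less sharply divided. Fcer1a, the IgE-binding chain of FcεRI, had a choroid mean of 2.92 ± 2.68 normalized counts and Ms4a2, its β chain, 5.44 ± 7.69, both above 0 in 16 of 20 choroids; in retina Fcer1a was above 0 in 0 libraries and Ms4a2 in 1, at 0.484. Kit (chr5:75735576-75817404, plus strand) was measured in both tissues, at 1093 ± 301 in choroid and 189 ± 54.1 in retina, a 5.77-fold difference with the choroid higher in 20 of 20 mice. Hdc (chr2:126435558-126461318, minus strand), histidine decarboxylase, ran the other way, with a mean of 36.4 ± 37 in choroid and 386 ± 181 in retina, 10.6-fold higher in retina and higher there in 20 of 20 mice. Neurons of several kinds and other blood cells also express Hdc, so its retinal RNA cannot be assigned to mast cells from these data.

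In limma over all 40 libraries with Benjamini-Hochberg adjustment, where a gene was called at an adjusted p of 0.05 or less, 82.0% of 24317 genes differed between the tissues and 40.8% were higher in choroid. All 9 members were called, 8 higher in choroid and Hdc lower. On the log2(normalized count + 1) scale Kit differed by 2.53 (SE 0.11, adjusted p = 7.17e-23) and Hdc by -3.72 (SE 0.30, adjusted p = 3.81e-14). For the genes at 0 in retina the fitted size depends on the value added before the logarithm (for Cpa3 from 3.52 with 5 added to 6.66 with 0.5 added), so the fold bounds above stand in its place. Because most genes differed between these tissues, a call alone says little about the members.

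**Figure D1:**
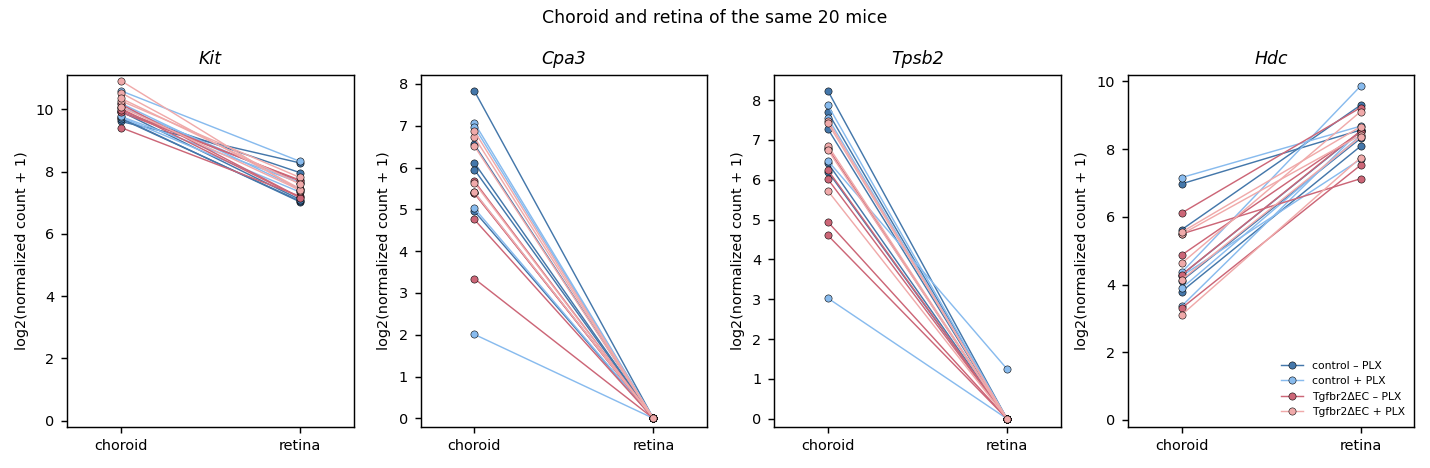
Kit, Cpa3, Tpsb2 and Hdc in choroid and retina of the same 20 mice, as log2(normalized count + 1); each line joins the tissues of 1 mouse and colours mark the 4 groups. Every line falls from choroid to retina for Kit, Cpa3 and Tpsb2 and rises for Hdc, and Cpa3 lies at 0 in all 20 retinas.

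Choroid means were also divided by the annotated exon length of each gene, for a rough comparison between genes. Over all choroids together the order was Kit (115 normalized counts per kilobase), Mcpt4 (92.4), Cma1 (81.7), Tpsb2 (53.8), Cpa3 (43.3), Tpsab1 (22.1), Hdc (5.30), Fcer1a (2.92) and Ms4a2 (1.93). The transcripts present in choroid may be shorter than the annotated exons, so the order depends partly on the annotation. Protease means differed between the groups, so the order need not hold within each group. By this pooled measure the proteases had far more RNA per length than the IgE receptor chains. In normalized counts the mean of Fcer1a (2.92) lay within the 3-read level of 2.72 to 3.57 of a choroid and that of Ms4a2 (5.44) above it.

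The 4 best-measured proteases varied widely between mice and did so together. From the lowest to the highest choroid Cpa3 spanned 75.0-fold, Cma1 117-fold, Mcpt4 50.6-fold and Tpsb2 41.8-fold, whereas Kit spanned 2.85-fold. For each of these 4 proteases mouse 11 (control + PLX) was the lowest, mouse 7 (Tgfbr2ΔEC – PLX) next and mouse 3 (control – PLX) the highest. Over 20 choroids, on the log2(normalized count + 1) scale, Cpa3 correlated with Mcpt4 at Pearson's r = 0.96 and Spearman's rho = 0.93, with Tpsb2 at r = 0.95 and rho = 0.92, and with Cma1 at r = 0.94 and rho = 0.88. Each of these p-values was 1e-05, the smallest that 100000 permutations can give, or 3.67e-05 after Benjamini-Hochberg adjustment over the 11 relations examined. Without mice 7 and 11, the farthest from the median of Cpa3, r was 0.89, 0.87 and 0.84, and with the group means removed it was 0.95, 0.94 and 0.93.

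The SD of log2 Cpa3 over choroids was 1.33, while the SD of the log2 difference between Mcpt4 and Cpa3 was 0.40, of Tpsb2 and Cpa3 0.42 and of Cma1 and Cpa3 0.51. Most of the spread of a protease between mice was therefore shared, and the proportions of these proteases to each other were steadier than their levels. In bulk tissue, fewer mast cells in the piece and less RNA per mast cell cannot be told apart. Among 17596 genes with a mean of at least 10 normalized counts in choroid, the genes most like Cpa3 once group means were removed were Mcpt4, Tpsb2 and Cma1 in that order, followed at a distance by Hectd2os (r = 0.80) and Mrm1 (r = 0.79). The further genes listed for mast cells, described below, did not follow Cpa3 as a set. They ran from r = 0.56 for Mrgprb1 (rank 261) to r = -0.49 for Slc18a2 (rank 17267), with Gata2 at r = -0.38.

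**Figure D2:**
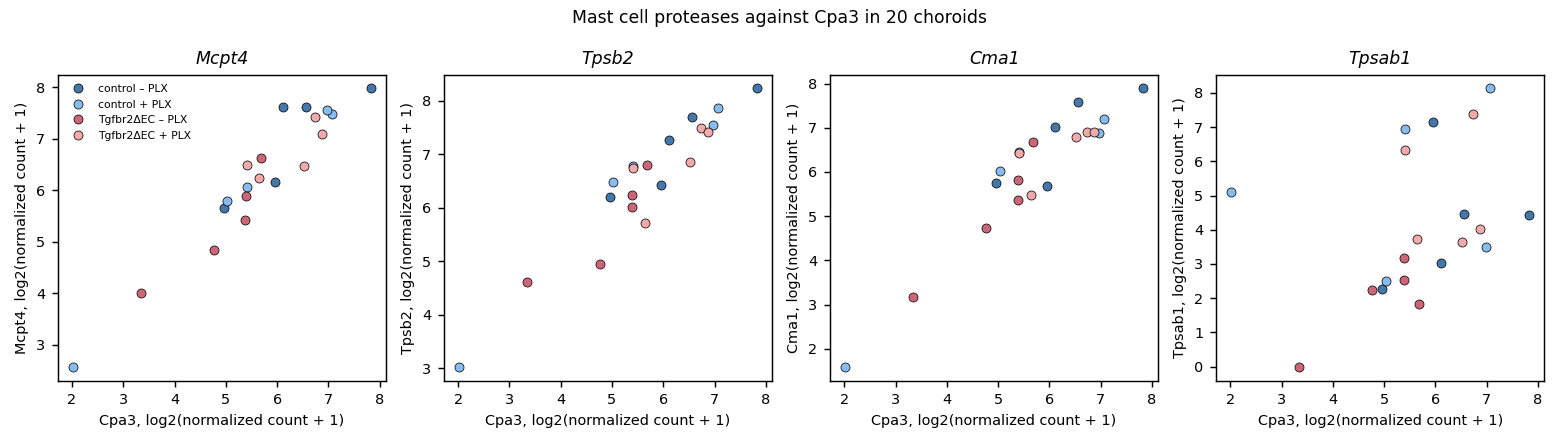
Mcpt4, Tpsb2, Cma1 and Tpsab1 (y axes) against Cpa3 (x axis) in 20 choroids, all as log2(normalized count + 1), with 1 point per mouse coloured by group. The first 3 follow Cpa3 over its whole range (r = 0.96, 0.95 and 0.94), with mouse 11 at the lower left, and Tpsab1 follows it less closely (r = 0.34, rho = 0.50).

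The other members followed Cpa3 less closely. Fcer1a correlated with it at r = 0.66 and rho = 0.60 (permutation p = 0.001 and 0.0062, adjusted 0.00275 and 0.0136), and at r = 0.49 without mice 7 and 11. For Ms4a2 the values were r = 0.58 and rho = 0.74 (permutation p = 0.00639 and 3e-04, adjusted 0.0141 and 0.000825), with r = 0.62 without those mice. Tpsab1 gave r = 0.34 and rho = 0.50 (permutation p = 0.138 and 0.0257, adjusted 0.19 and 0.0472) and Hdc r = 0.36 and rho = 0.39 (permutation p = 0.113 and 0.091, adjusted 0.178 and 0.125); r was 0.39 and 0.23 without mice 7 and 11. No relation of Kit to Cpa3 passed the test, with r = -0.13 and rho = 0.06 (permutation p = 0.595 and 0.801, adjusted to the same values), r = 0.26 without mice 7 and 11 and r = -0.33 with group means removed. The genes most like Kit once group means were removed were Ift80 (r = 0.88), Sox7 (r = 0.84), Mrtfb (r = 0.82), Patj (r = 0.80) and Cln6 (r = 0.80), none of them a listed mast cell gene. Kit with the mean log2 level of 10 melanocyte genes gave r = 0.47 and rho = 0.44 (permutation p = 0.0372 and 0.0519, adjusted 0.0682 and 0.0815), r = 0.43 without mice 9 and 11, and r = 0.22 with group means removed. Pigment epithelium was also in these pieces, with its genes Rpe65 and Rlbp1 called higher in choroid than in retina. How much of this melanocyte score came from pigment epithelium was not tested.

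Promoter sequences are shown for 3 of the proteases that moved together and for Kit, 1 of the members that did not. They are RefSeq windows of 300 bases, from 250 before to 50 after the start, from a table of GRCm38.p6 that were each found once and without change in GRCm39; 7 of the 9 members had one. The windows below lie at chr3:20296296-20296595 (Cpa3, minus strand), chr14:56182083-56182382 (Cma1, minus strand), chr14:56299718-56300017 (Mcpt4, minus strand) and chr5:75735397-75735696 (Kit, plus strand) of GRCm39, written 5′ to 3′ in the direction of the gene. Capitals mark GATA words, the letters AGATAA and the form AGATAG, or TGATAA and the form TGATAG, on either strand; GATA factors, GATA2 among them, bind such words and act in mast cells.
Cpa3: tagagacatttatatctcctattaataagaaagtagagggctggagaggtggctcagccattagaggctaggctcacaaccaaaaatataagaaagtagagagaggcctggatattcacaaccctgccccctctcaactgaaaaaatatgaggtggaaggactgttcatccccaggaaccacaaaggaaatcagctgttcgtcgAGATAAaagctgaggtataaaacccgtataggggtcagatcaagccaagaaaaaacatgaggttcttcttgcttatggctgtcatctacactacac
Cma1: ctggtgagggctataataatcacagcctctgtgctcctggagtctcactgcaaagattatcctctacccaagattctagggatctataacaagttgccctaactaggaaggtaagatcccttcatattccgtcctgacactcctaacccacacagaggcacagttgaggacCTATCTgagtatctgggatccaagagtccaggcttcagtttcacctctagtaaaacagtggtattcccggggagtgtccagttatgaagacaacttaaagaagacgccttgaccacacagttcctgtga
Mcpt4: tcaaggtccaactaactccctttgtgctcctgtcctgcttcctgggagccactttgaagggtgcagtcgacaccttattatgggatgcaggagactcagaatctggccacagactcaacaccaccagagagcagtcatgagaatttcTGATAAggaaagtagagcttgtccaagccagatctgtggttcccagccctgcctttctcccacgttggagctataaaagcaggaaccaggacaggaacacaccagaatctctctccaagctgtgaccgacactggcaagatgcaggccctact
Kit: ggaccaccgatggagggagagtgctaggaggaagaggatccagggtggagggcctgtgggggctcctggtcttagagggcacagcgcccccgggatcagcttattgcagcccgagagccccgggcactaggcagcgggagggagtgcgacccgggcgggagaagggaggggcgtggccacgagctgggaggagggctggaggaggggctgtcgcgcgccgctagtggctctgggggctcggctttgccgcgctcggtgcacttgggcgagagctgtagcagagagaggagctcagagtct
The word began 46 bases before the start in Cpa3, 79 in Cma1 and 103 in Mcpt4, and the Kit window held none. A GATA word was found in 6 of the 7 member windows, all but Kit, against 29.8% of 32851 promoter windows of the same length. The Hdc window held one as well, 221 bases before the start, and Hdc did not pass the test against Cpa3, so the word did not separate the members that moved together from the rest. E-box words (CACGTG or CATGTG on either strand, letters that the factor MITF can bind) were found in 1 member window, that of Fcer1a, against 20.4% of all windows, and no match of either kind overlapped another. A match describes letters and not a bound site.

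Kit was the only member called with PLX in choroid, and it rose. In control – PLX mice Kit was at 782, 957, 847, 833 and 979 normalized counts, and in control + PLX mice at 1552, 862, 876, 1175 and 1089. In Tgfbr2ΔEC – PLX mice it was at 683, 1151, 962, 1046 and 1003, and in Tgfbr2ΔEC + PLX mice at 1241, 1944, 1486, 1083 and 1311. The diet groups overlapped in both genotypes, with 3 of 5 control + PLX choroids above every control – PLX choroid and 4 of 5 Tgfbr2ΔEC + PLX choroids above every Tgfbr2ΔEC – PLX choroid. The group means were 879.6 ± 84.7, 1111 ± 281, 969 ± 175 and 1413 ± 330.4 in that order of the groups, and each neighbouring pair in the order of levels differed by less than the larger SD of the pair.

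Over both genotypes the difference with PLX was 0.42 on the log2(normalized count + 1) scale (SE 0.12, 95% interval 0.17 to 0.67, adjusted p = 0.0344 in limma with Benjamini-Hochberg adjustment; exact permutation p = 0.00205, two-sided, diet relabelled within genotype). The ratio of group means was 1.26 in controls and 1.46 in Tgfbr2ΔEC mice. Within a genotype Kit was not called, with differences of 0.31 (adjusted p = 0.452; 0.18 without mouse 11) and 0.54 (adjusted p = 0.0838; exact permutation p = 0.0159, where 5 mice against 5 cannot give less than 0.0079), and the effects in the 2 genotypes did not differ beyond the spread (interaction 0.23, 95% interval -0.27 to 0.73; exact permutation p = 0.412). That interaction was 0.11 without mouse 17, 0.36 without mouse 11 and 0.09 with the neural retina score described next. The call over both genotypes was close to the threshold: it was lost on leaving out any of mice 1, 3, 4, 6, 8, 11, 14, 17 or 18 (difference 0.36 to 0.42, adjusted p 0.0539 to 0.0681), and also with a neural retina score (0.36, adjusted p = 0.154) or a melanocyte score (0.36, adjusted p = 0.156) as covariate in limma. These scores are the mean log2(normalized count + 1) of 10 marker genes each. Markers of other choroid cells also had higher values with PLX: of 6 markers of vessels and pigment epithelium 6 were positive, with a median of 0.23 and Pecam1 of endothelium called (0.24, limma adjusted p = 0.0424), and of 6 connective tissue markers 5 were positive, with a median of 0.18 and Dcn, the matrix protein decorin, called (0.45, limma adjusted p = 0.00463). Scores of these lists ran from 12.8 to 12.9 and from 15.7 to 15.8 in control – PLX, from 12.8 to 13.3 and from 15.7 to 16.01 in control + PLX, from 12.6 to 13.03 and from 15.4 to 15.9 in Tgfbr2ΔEC – PLX, and from 12.9 to 13.2 and from 15.8 to 16.2 in Tgfbr2ΔEC + PLX choroids, with none of the 12 genes at 0. Their part in the rise of Kit was not tested. Of the 10 melanocyte genes 10 were positive with PLX over both genotypes (median 0.18) and of the 10 neural retina genes 10 were negative (median -1.16), and 0 of either list were called; the scores of both are the covariates given above.

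In all, 7.13% of 23619 genes tested in choroid were called with PLX over both genotypes, and 2.07% were called and higher and 5.06% called and lower with PLX; of the members 1 of 9 was called. With PLX in controls 3.75% of genes were called and in Tgfbr2ΔEC mice 4.06%, and 0 of 9 members in either; at an unadjusted p of 0.05 or less, limma had 0 members in controls and 3 (Kit, Tpsab1 and Ms4a2) in Tgfbr2ΔEC mice, against 13.8% and 15.4% of all genes tested.

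The proteases Cpa3, Cma1, Mcpt4 and Tpsb2 did not pass the test with PLX over both genotypes. Cpa3 was at 30.1, 93.0, 227, 68.3 and 60.9 normalized counts in control – PLX and at 3.03, 31.6, 134, 125 and 41.5 in control + PLX choroids. In Tgfbr2ΔEC – PLX choroids it was at 26.1, 9.15, 40.7, 41.0 and 50.1, and in Tgfbr2ΔEC + PLX choroids at 105, 90.4, 41.6, 48.8 and 116. The diet groups overlapped in both genotypes, and the lowest Cpa3 of all was mouse 11, with PLX, and the highest mouse 3, without it. Over both genotypes the log2 differences were 0.17 for Cpa3 (95% interval -0.92 to 1.26, adjusted p = 0.909 in limma), 0.10 for Cma1 (-1.12 to 1.32), 0.14 for Mcpt4 (-0.93 to 1.2) and 0.15 for Tpsb2 (-0.87 to 1.17). With the melanocyte score as a covariate they were larger, at 0.88 for Cpa3 (95% interval -0.14 to 1.91), 0.90 for Cma1 (-0.24 to 2.05), 0.83 for Mcpt4 (-0.18 to 1.83) and 0.78 for Tpsb2 (-0.19 to 1.76), and still not called (limma adjusted p 0.416 to 0.471). With the neural retina score Cma1 was 0.36, Mcpt4 0.29 and Tpsb2 0.28. A difference in either direction within these intervals was not detectable with this spread between mice.

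Behind these averages, the point estimates had opposite signs in the 2 genotypes. In controls the log2 differences with PLX were -0.98 for Cpa3, -1.15 for Cma1, -1.11 for Mcpt4 and -0.82 for Tpsb2 (limma adjusted p 0.558 to 0.679), and without mouse 11 they were -0.16, -0.14, -0.28 and 0.0036. In Tgfbr2ΔEC mice they were 1.32 for Cpa3, 1.35 for Cma1, 1.38 for Mcpt4 and 1.13 for Tpsb2 (limma adjusted p 0.383 to 0.492; exact permutation p = 0.0397, 0.0714, 0.0317 and 0.0714 in the same order). Mcpt4 was at 27.5, 15.1, 41.9, 58.1 and 98.4 normalized counts in Tgfbr2ΔEC – PLX and at 170.5, 87.3, 89.2, 74.1 and 135 in Tgfbr2ΔEC + PLX choroids. Of the latter, 2 of 5 lay above every Tgfbr2ΔEC – PLX choroid. The neural retina score also differed in this comparison, at 10.8 to 12.5 in Tgfbr2ΔEC – PLX and 8.09 to 9.67 in Tgfbr2ΔEC + PLX choroids without overlap, with 10 of 10 genes lower with PLX (median -2.49) and 1 of them called. With that score as a covariate the differences in Tgfbr2ΔEC mice were 1.43 for Cpa3, 1.89 for Cma1, 1.70 for Mcpt4 and 1.40 for Tpsb2. Since the score did not overlap between these diet groups, that fit cannot separate diet from retinal RNA. With the melanocyte score the differences were 2.35, 2.50, 2.38 and 2.04 in the same order (limma adjusted p 0.0824 to 0.146). Without mouse 7 Cma1 was 0.85.

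The interaction, that is the difference between the genotypes in the effect of PLX, was 2.31 for Cpa3 (exact permutation p = 0.0484, 63504 relabellings), 2.49 for Mcpt4 (exact permutation p = 0.0327), 2.50 for Cma1 (exact permutation p = 0.0571) and 1.95 for Tpsb2 (exact permutation p = 0.0811). Here genotype was relabelled within each diet, which supposes no effect of genotype in either diet. These p-values are therefore not exact for the interaction alone. After adjustment over all genes, limma called 0 of 23619 genes (0%) for the interaction, with 1552 (6.57%) at an unadjusted p of 0.05 or less, Cpa3, Cma1 and Mcpt4 among them, and the adjusted p of these 4 proteases was 0.659 to 0.785. The 4 proteases measure largely the same variation and are not separate evidence. Without mouse 11 the interaction was 1.48 for Cpa3, 1.66 for Mcpt4, 1.49 for Cma1 and 1.12 for Tpsb2.

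**Figure D3:**
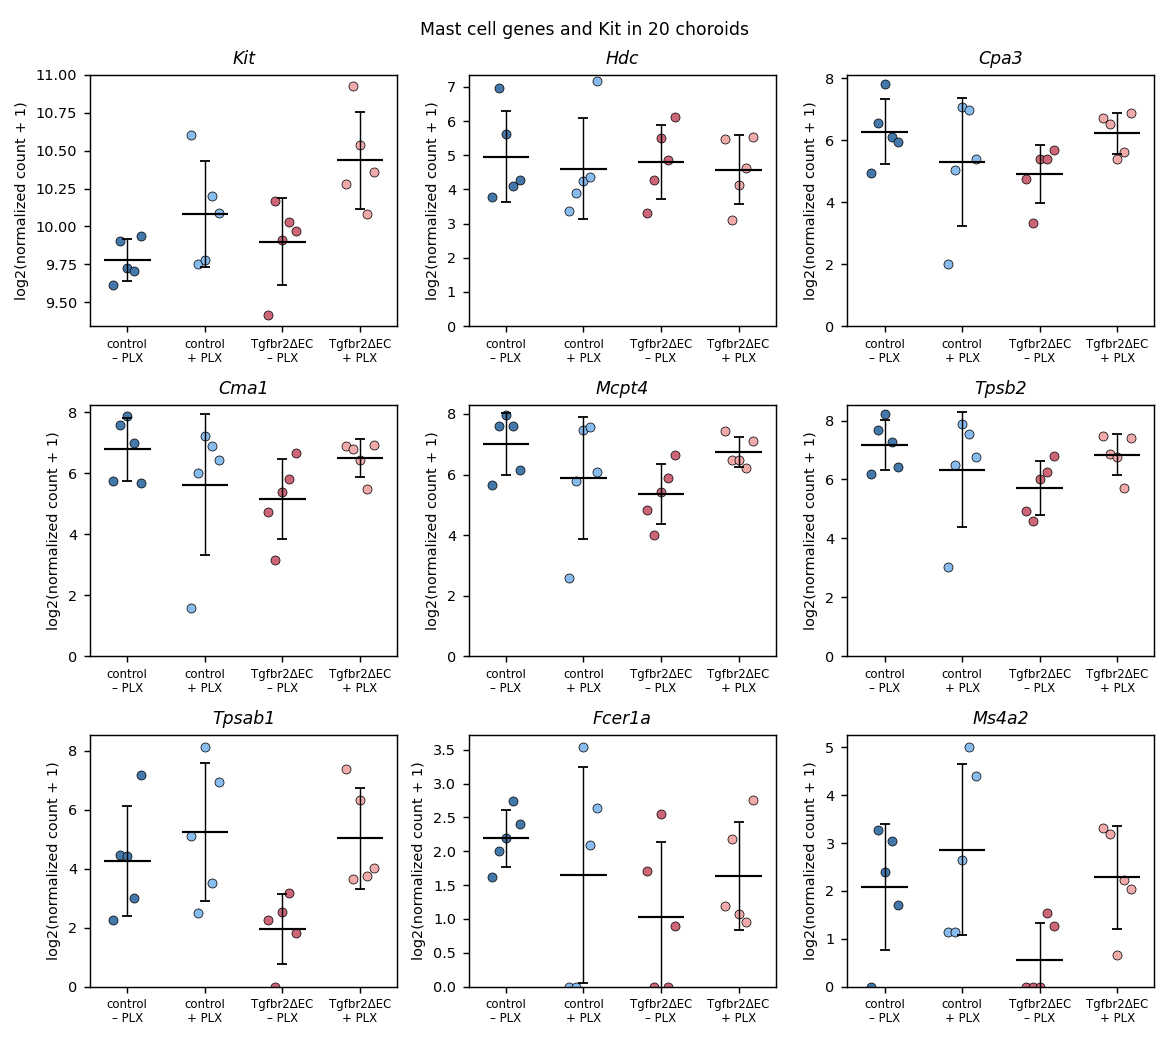
Normalized counts of the 9 genes in 20 choroids, as log2(normalized count + 1), by genotype and diet; points are mice, horizontal bars group means and whiskers the SD of 5 mice. Kit lies highest in Tgfbr2ΔEC + PLX, and mouse 11 is the low point of control + PLX for Cpa3, Cma1, Mcpt4 and Tpsb2.

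Without PLX, the proteases had lower values in Tgfbr2ΔEC than in control choroids, but none of the 9 members was called in a comparison in which 0.00423% of genes were. That share is 1 gene and was unstable, at 411 genes without mouse 15 and 303 with the 10 mice alone, with 0 members called in either. Mean Cpa3 was 95.9 ± 76.8 normalized counts in control – PLX and 33.4 ± 16.1 in Tgfbr2ΔEC – PLX, mean Mcpt4 152 ± 87.5 and 48.2 ± 32.3, and mean Tpsb2 163 ± 93.2 and 60.1 ± 35.2. The log2 differences were -1.37 for Cpa3, -1.63 for Cma1, -1.64 for Mcpt4, -1.45 for Tpsb2 and -2.32 for Tpsab1 (limma adjusted p 0.468 to 0.635; exact permutation p = 0.0476 for each but Cma1, at 0.0556). This comparison shares its 5 Tgfbr2ΔEC – PLX mice with the effect of PLX in Tgfbr2ΔEC mice, so the 2 are not independent. The Tgfbr2ΔEC – PLX choroids also had higher values of neural retina genes: the score of 10 photoreceptor and other retinal genes ranged from 10.8 to 12.5 there and from 7.23 to 10.1 in control – PLX choroids, without overlap, with none of the 10 genes at 0 in either group. Of these genes 10 were higher (median log2 difference 2.71) and 0 were called. With this score as a covariate in limma the differences were -1.49 for Cpa3 and -1.97 for Mcpt4. Because the score did not overlap between these 2 groups, that fit cannot separate genotype from retinal RNA. With PLX, 0 of 9 members were called between the genotypes, again with 0.00423% of genes called, and Cpa3 differed by 0.93 (95% interval -0.61 to 2.48), which was 0.11 without mouse 11 and 1.43 with the melanocyte score as a covariate.

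Tpsab1 and Ms4a2 had higher values with PLX without passing the test. Tpsab1 encodes the tryptase mMCP-7, which C57BL/6 mice are known to lack as protein because of a splice-site change. It was at 3.84, 21, 20.6, 7.10 and 142 normalized counts in control – PLX choroids and at 33.4, 4.63, 279, 10.4 and 122 in control + PLX choroids. In Tgfbr2ΔEC – PLX choroids it was at 3.76, 0, 4.73, 8.03 and 2.54, and in Tgfbr2ΔEC + PLX choroids at 164, 11.4, 80.2, 12.4 and 15.3. The controls overlapped widely, whereas all 5 Tgfbr2ΔEC + PLX choroids lay above all 5 without PLX (log2 difference 3.07, SE 1.05, limma adjusted p = 0.118; exact permutation p = 0.00794, the smallest possible). Over both genotypes the difference was 2.02 (SE 0.74, limma adjusted p = 0.12; exact permutation p = 0.0277). With the melanocyte score as a covariate limma called it, at 3.24 (adjusted p = 0.00159) over both genotypes and 4.83 (adjusted p = 0.00179) in Tgfbr2ΔEC mice, and with the 10 Tgfbr2ΔEC mice fitted alone at 3.07 (adjusted p = 0.0433). The melanocyte score ranged from 12.9 to 13.3 in Tgfbr2ΔEC – PLX and from 13.2 to 13.5 in Tgfbr2ΔEC + PLX choroids, with none of the 10 genes at 0. What sets the melanocyte score of a choroid was not tested.

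Ms4a2 was at 0, 8.60, 4.24, 7.23 and 2.28 normalized counts in control – PLX and at 1.21, 1.21, 5.27, 31 and 20 in control + PLX choroids. In Tgfbr2ΔEC – PLX choroids it was at 0, 0, 0, 1.89 and 1.39 and in Tgfbr2ΔEC + PLX choroids at 8.97, 8.16, 0.580, 3.68 and 3.08. Many of these values are a few reads, and in Tgfbr2ΔEC mice 4 of 5 choroids with PLX lay above all without it. The difference over both genotypes was 1.26 (SE 0.55, limma adjusted p = 0.208; exact permutation p = 0.0435). Fcer1a, with 10.6 normalized counts at most, differed by 0.03 (95% interval -0.94 to 1.01), and by 0.50 with the melanocyte score as a covariate, not called.

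Hdc showed no difference with PLX beyond the spread in either tissue. In choroid it ranged from 7.59 in mouse 17 to 142 in mouse 15, both with PLX, and the log2 difference over both genotypes was -0.29 (95% interval -1.36 to 0.78, adjusted p = 0.821 in limma), which ran from -0.61 without mouse 15 to -0.04 without mouse 2. In retina Kit and Hdc were the members with enough RNA to be tested. Kit was at 310.0, 249, 130, 132 and 137 normalized counts in control – PLX and at 321, 161, 199, 173 and 198 in control + PLX retinas, and at 147, 143, 211, 143 and 207 in Tgfbr2ΔEC – PLX and 224, 166, 174, 169 and 193 in Tgfbr2ΔEC + PLX retinas, so that all groups overlapped. The log2 difference with PLX was 0.16 for Kit (95% interval -0.19 to 0.51) and 0.18 for Hdc (-0.38 to 0.74). Over leaving out single mice these ran from 0.08 (without mouse 11) to 0.26 (without mouse 1) for Kit and from 0.02 (without mouse 14) to 0.31 (without mouse 10) for Hdc, and 0 of 2 members were called against 1.09% of 23243 genes.

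**Figure D4:**
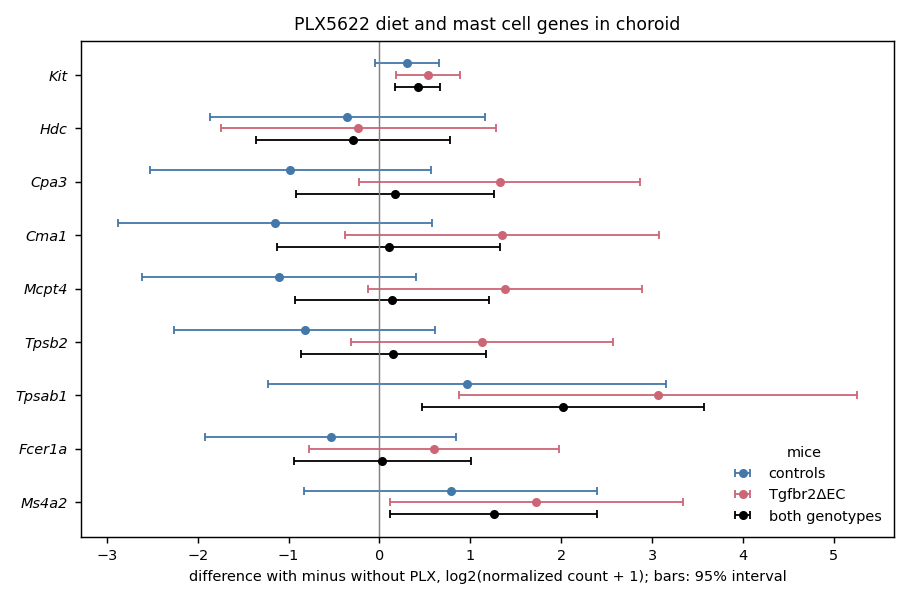
Difference with minus without PLX in choroid for the 9 genes, on the log2(normalized count + 1) scale, with 95% limma intervals, for controls, Tgfbr2ΔEC mice and both genotypes. The interval for Kit over both genotypes (0.17 to 0.67) is narrow and above 0, and those of Cpa3, Cma1, Mcpt4 and Tpsb2 over both genotypes span 0.

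Of the class III receptor kinases, Csf1r and Flt3 fell with PLX. Csf1r, the target of PLX, had choroid means of 8411 ± 293 normalized counts in control – PLX and 4097 ± 654 in control + PLX mice, and of 7659 ± 695 and 3831 ± 401 in Tgfbr2ΔEC mice. Flt3, the receptor for FLT3 ligand on dendritic cells and progenitors, was at 98.6 ± 21.3 and 60.8 ± 12.3 in controls and at 101 ± 15.3 and 51.9 ± 16.5 in Tgfbr2ΔEC mice. Neither gene overlapped between the diets in either genotype. Over both genotypes Csf1r differed by -1.03 (adjusted p = 1.29e-09 in limma) and Flt3 by -0.84 (adjusted p = 0.00129), whereas Pdgfra (0.31, adjusted p = 0.0613) and Pdgfrb (0.18, adjusted p = 0.0548), which complete the class, were not called. Kitl, which encodes the ligand of KIT, had means of 4005 ± 285 in control – PLX, 4336 ± 664 in control + PLX, 4298 ± 419.7 in Tgfbr2ΔEC – PLX and 5231 ± 190.3 in Tgfbr2ΔEC + PLX choroids, and was not called (0.20, SE 0.07, adjusted p = 0.0792 in limma; exact permutation p = 0.00882), although all 5 Tgfbr2ΔEC + PLX choroids lay above all 5 Tgfbr2ΔEC – PLX choroids.

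**Figure D5:**
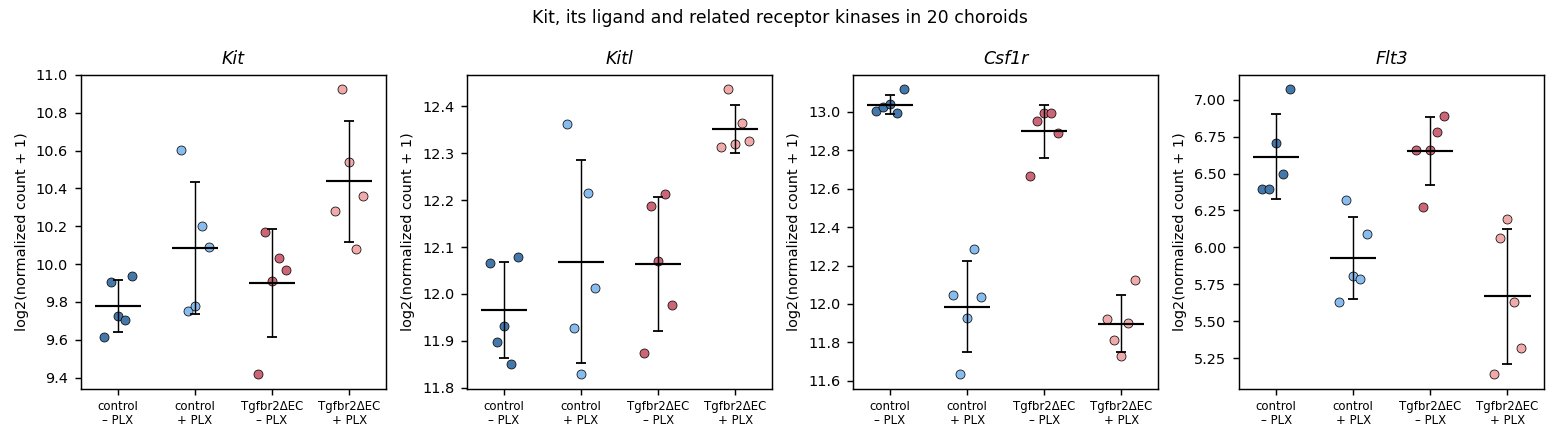
Kit, its ligand Kitl and the related receptors Csf1r and Flt3 in 20 choroids, as log2(normalized count + 1), by genotype and diet; points are mice, horizontal bars group means and whiskers the SD of 5 mice. Csf1r and Flt3 are lower in every choroid with PLX of a genotype than in any without, and Kit overlaps between the diets.

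Of 24 further genes listed for mast cells, 18 had enough RNA in choroid to be tested with PLX over both genotypes, of which 1 rose and 4 fell (2.07% and 5.06% of all genes tested), with a median log2 difference of -0.02 against 0.00054 over all genes tested. Gata2, a transcription factor of mast cells that endothelium also uses, rose by 0.54 (limma adjusted p = 0.048). Hpgds, prostaglandin D synthase, differed by -1.26, Alox5, which starts leukotriene synthesis, by -2.19, Ltc4s, leukotriene C4 synthase, by -1.21, and Srgn, the core protein of granule proteoglycans, by -0.58, and all 4 are also expressed by phagocytes. Mrgprb1 and Mrgprb2, receptors of the family that basic peptides act on in mast cells, were not called (1.27, adjusted p = 0.125, and 0.08, adjusted p = 0.959).

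Of 22 listed genes of KIT and FcεRI signalling, among them the ligand gene Kitl, the receptor chain gene Fcer1g and genes of the steps inside the cell, 0 rose and 11 fell, where 5.06% of all genes tested fell, with a median of -0.33. Fcer1g, the γ chain shared by Fc receptors, differed by -2.17, Lyn and Syk, kinases of the first steps, by -1.47 and -1.06, Inpp5d, the phosphatase SHIP1, by -1.62 and Btk by -1.84, all called in limma. These genes are shared with mononuclear phagocytes, and 15 of 15 phagocyte markers fell with a median of -1.96; their summed level per choroid was 103849 to 132291 normalized counts in control – PLX and 30508 to 65485 in control + PLX mice, and 106440 to 129291 and 30340 to 42579 in Tgfbr2ΔEC mice, with none of the 15 genes at 0. How much of the fall of the signalling genes came from mast cells was not tested. Of 6 histamine genes tested, 0 rose and 2 fell, the receptors Hrh1 (-1.86) and Hrh2 (-1.11), and 0 of 4 basophil markers and 0 of 10 melanocyte markers were called.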

How the data were processed

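Per the labels and the study's methods, the authors quantified single-end reads of polyadenylated RNA with Salmon 1.10.1 against GRCm39, imported the estimates with tximport and normalized them with DESeq2 1.36.0. They deposited 1 table of normalized counts (a signal per gene, not whole numbers and with no fixed total), in which both tissues were scaled together: over 15800 genes above 0 in every library, the median ratio to a gene's geometric mean was 1.01 in each of the 40 libraries, while within a tissue it ran from 0.983 to 1.03 over choroids and from 0.992 to 1.04 over retinas. The study's methods describe separate analysis of the tissues, so the deposited scaling differs from theirs in that respect. The worth of 1 read was estimated from the smallest steps between values. Low values came within 0.1 of a whole number of reads for 57.2% to 75.3% of genes per choroid and 47.7% to 72.8% per retina, too few to rebuild counts, and no count test was run. Of 54307 identifiers, 53700 matched GENCODE M39.

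limma 3.58.1 (R 4.3.3) with a mean-variance trend was fitted to log2(normalized count + 1) of genes whose mean reached 1 over the 20 libraries of a tissue, with 4 groups per tissue and no covariate, and an adjusted p (Benjamini-Hochberg) of 0.05 or less was called. Changes of genes with low values come out too small on this scale. Tissues were compared in a fit of 8 groups, and a fit with the mouse as replicate block, which pairs both tissues of an animal by its number, was an alternative. For single genes an exact permutation test, two-sided, was used (252 splits of 5 against 5, or 63504 relabellings within strata). The strata were the genotypes for the effect of PLX over both genotypes, and the diets for the interaction. Tissues and correlations were tested with 100000 resamples (Python 3.11.15, scipy 1.17.1). The limma step was tested on simulated data.

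The members, the gene lists and the tests were chosen with earlier results of these data known. The genes named are the members, the listed genes and, for Cpa3 and Kit, the 5 genes most like them with a mean of at least 10. Windows of 50 bases shared with other genes made up 8.03% of the windows of Mcpt4, 4.25% of Cma1, 2.06% of Ms4a2 and 0.128% of Hdc, and 0% of the other members, so Mcpt4 and Cma1 are slightly uncertain. Alternatives were other pseudocounts (0.5 and 5), minimum means (none and 10) and scalings, a robust variance, scores of neural retina, sex and melanocyte genes as covariates, separate fits of the 10 mice compared and the omission of each mouse. The authors' covariates were not used here. The study's stainings were not analysed here.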

Additional observations from a re-analysis of the deposited data

Results flagged for a closer look

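In 4 of 44 groups of 5 mice examined for the members, 1 mouse stood apart by a gap of more than 0.71 of the range of its group (Dixon's test). Chance gives about 2.2 such groups only if the values are normally distributed. The gaps were taken on normalized counts and not on the log2 scale used elsewhere. Because these counts are spread widely between mice, the count of 4 cannot be read as an excess over chance. Kit in retina of mouse 11 (control + PLX) was at 321 normalized counts, with the next at 199 (gap 0.768 of the range). Tpsab1 in choroid of mouse 5 (control – PLX) was at 142, with the next at 21 (gap 0.876). Hdc in choroid of mouse 15 (control + PLX) was at 142, with the next at 19.5 (gap 0.923), and Hdc in retina of mouse 14 (control + PLX) was at 933, with the next at 409.5 (gap 0.722).

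The interaction of genotype and PLX in choroid passed 0.05 in the permutation test for 2 of 9 members. These were Cpa3 (2.31 on the log2 scale, exact permutation p = 0.0484) and Mcpt4 (2.49, exact permutation p = 0.0327), neither of them called after adjustment over all genes in limma. As given above, relabelling genotype within diet does not test the interaction alone. At an unadjusted p of 0.05 or less limma had 6.57% of all genes for this interaction. These are 2 measures of largely the same variation.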

How the results depend on the processing

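The rise of Kit with PLX in choroid kept its direction under every alternative run (0.36 to 0.47 over leaving out single mice), but its call was lost without any of 9 mice, as given above, and with a neural retina or melanocyte score as covariate. The cause was not tested. The number of members called with PLX over both genotypes was 1, but 0 with the neural retina score and 0 to 2 over leaving out single mice (2, with Tpsab1, without mouse 12), and in Tgfbr2ΔEC mice it was 1 with the melanocyte score and 1 with the 10 mice alone, in each case Tpsab1. The count of genes called was 572 in controls with the 10 mice alone, 517 and 564 in Tgfbr2ΔEC mice with the neural retina and melanocyte scores, and 154 in retina with a minimum mean of 10. Between genotypes without PLX it was 1, but 303 with the 10 mice alone, 0 with a minimum mean of 10 and 1 to 411 over leaving out single mice (411 without mouse 15, 2 without mouse 4 or mouse 8); with PLX it was 1, but 0 with a pseudocount of 5, a minimum mean of 10, any of the 3 scores or the 10 mice alone, and 0 to 1 over leaving out single mice. The replicate block, pairing both tissues of a mouse, was run for the comparison of tissues alone and left 9 of 9 members called there (Kit 2.53); with a minimum mean of 10, 7 were called, since Fcer1a and Ms4a2 were then not tested.

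Of the uncalled differences, some changed sign. With PLX over both genotypes Fcer1a was -0.040 with the sex score and Hdc 0.024 with the melanocyte score; over leaving out single mice Cpa3 ran from -0.051 to 0.58, Cma1 from -0.15 to 0.60, Mcpt4 from -0.071 to 0.55, Tpsb2 from -0.039 to 0.57 and Fcer1a from -0.20 to 0.24, with the upper ends of the proteases without mouse 11. Ms4a2 was 0.64 with a pseudocount of 5. In controls Tpsb2 ran from -1.21 to 0.0036 and Hdc from -0.99 to 0.15. In Tgfbr2ΔEC mice Hdc was 0.27 with the neural retina score and 0.22 with the melanocyte score and ran from -0.61 to 0.14. The interaction of Hdc ran from -0.39 to 0.76. Between genotypes without PLX Hdc ran from -0.47 to 0.36. With PLX Tpsab1 was 0.63, Fcer1a 0.30 and Hdc 0.20 with the melanocyte score and Fcer1a 0.16 with a pseudocount of 0.5, and Cma1 ran from -0.14 to 1.27, Tpsb2 from -0.32 to 0.89, Tpsab1 from -0.90 to 0.51, Fcer1a from -0.44 to 0.45 and Hdc from -0.33 to 0.62. Kit with Cpa3 gave r = 0.26 without mice 7 and 11. Hdc against the neural retina score over choroids, a relation added after seeing the data, gave r = 0.18 and rho = 0.17 (permutation p = 0.441 and 0.468, adjusted 0.485 and 0.534; r = 0.08 without mice 9 and 11), and Kit against it r = -0.28 and rho = -0.17 (permutation p = 0.225 and 0.485, adjusted 0.275 and 0.534; r = -0.18 without them). The depth limits Fcer1a and Ms4a2, at a few reads per choroid.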

Other observations

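The ratio of Tpsab1 to Tpsb2, the neighbouring tryptase genes, was uneven between mice in a way that the other proteases were not. In 14 of 20 choroids Tpsab1 was between 0 and 0.24 of Tpsb2. In the other 6 choroids the ratio was 0.753 (mouse 18), 0.923 (mouse 16), 1.13 (mouse 15), 1.2 (mouse 13), 1.69 (mouse 5) and 4.67 (mouse 11). Of these 6, 1 was control – PLX, 3 were control + PLX, 2 were Tgfbr2ΔEC + PLX and 0 were Tgfbr2ΔEC – PLX. In mouse 11 Tpsb2 was at 7.15 normalized counts, the lowest of all choroids, while Tpsab1 was at 33.4. This split was noticed in the values and was not tested.

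With group means removed, Cpa3 ran against all 10 listed melanocyte genes over the 20 choroids, from r = -0.70 for Ednrb to -0.27 for Mitf, as a description with no test. These genes and Cpa3 were measured in the same libraries.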
